A study of Homo sapiens with 6 samples.

Results

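The potassium and calcium channel genes were taken as the protein-coding genes whose symbol is KCN or CACN followed by letters and digits, such as KCNN4 or CACNA1C. Of the 61731 rows of the deposited table, 121 met this rule, namely 95 potassium channel genes and 26 calcium channel genes, counting both pore-forming and auxiliary subunits. Their expression was compared between U87-MG cells, an established human glioblastoma line, labelled as CHRM knockdown (KD) and the same line labelled as normal control, which the study calls negative control (NC). The target, CHRM3, is the gene of the M3 muscarinic receptor for acetylcholine, and its knockdown was made with a lentivirus. The libraries numbered 3 in each group, and the labels do not say whether they came from separate cultures, so that the p-values measure only the spread between these libraries. The study tried several knockdown sequences and named the most efficient. Which of them these cells carried is not given in the sources used here. Values are TPM, which give a transcript's share of its library after division by transcript length. They keep no read depth, which is unknown here, and between 22597 and 23311 genes were above 0 TPM in a library.

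Potassium channels let potassium leave the cell and set the resting membrane potential, whereas voltage-gated calcium channels admit calcium when the membrane is depolarized. The families are coupled, since calcium-activated potassium channels open when calcium in the cell rises and in turn change the drive for calcium entry. The M3 receptor acts through Gq and releases calcium from internal stores, and calcium-activated potassium channels have been studied in glioma for their part in cell volume and migration.

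The targeted gene, CHRM3 (ENSG00000133019), was read before the channel genes. It was 0.02, 0.09 and 0.13 TPM in NC replicates 1, 2 and 3 and 0.13, 0.01 and 0.02 TPM in KD replicates 1, 2 and 3, the order used for all values below. The groups overlapped, and the means of 0.08 and 0.0533 TPM did not differ beyond the spread (exact permutation test, two-sided, p = 0.80, n = 3; 0.10 is the smallest p possible, so that the test could not pass). CHRM3 did not reach 0.1 TPM in every library of either group, and its level is too low to check the knockdown in either direction. The paper reports, from its own measurements of CHRM3 levels, that the gene was knocked down efficiently in U87-MG cells. These libraries cannot be used to check this, and the groups below are therefore the labelled ones. Of the markers chosen for the cell type, VIM and CD44, which glioblastoma lines express, had NC and KD means of 6574 and 7376 TPM and of 597.3 and 473.5 TPM, while GFAP, the astrocyte filament gene, had means of 1.16 and 1.13 TPM. All 6 markers of a glioma and mesenchymal line were expressed, 3 lower and 3 higher in KD, with sums of 9436 to 9698 TPM in NC and 9458 to 9685 TPM in KD. The 5 astrocyte markers summed to between 1.18 and 2.05 TPM in NC and between 1.4 and 1.81 TPM in KD, and AQP4 was listed at 0. The 6 leukocyte markers together summed to between 0.85 and 1.03 TPM in NC and between 0.52 and 0.67 TPM in KD, with 3 of them, CD3E and TYROBP included, listed at 0 throughout. The 3 endothelial markers summed to at most 0.25 TPM and the 4 oligodendrocyte markers to at most 0.46 TPM. Of the 6 neuron markers, which matter for genes best known from neurons, SNAP25 and GAD1 were the only members above 1 TPM, and the list summed to between 24.43 and 25.86 TPM in NC and between 25.66 and 28.21 TPM in KD. SNAP25 rose from 9.74 to 13.8 TPM (limma adjusted p = 0.00255). GAD1 went the other way, from 15.2 to 12.9 TPM without overlap, and did not pass (limma adjusted p = 0.0534). The 4 epithelial markers summed to between 2.87 and 3.83 TPM in NC and between 7.49 and 9.42 TPM in KD, and within them KRT8 rose from 2.27 to 6.73 TPM (limma adjusted p = 0.000766). The part of these markers in the results below was not tested.

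Detection was considered next. Of the channel genes, 24 were listed at 0 in all 6 libraries, 59 others had a mean under 0.1 TPM, 20 had a mean between 0.1 and 1 TPM, and 18 had a mean of 1 TPM or more. With detection defined as at least 0.1 TPM in every library of at least one group, 34 genes were detected, 27 of the potassium channel genes and 7 of the calcium channel genes. A gene listed at 0 is one not measured above 0 in these libraries rather than one shown to be silent.

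Most of the channel genes were listed at 0 or had a mean under 0.1 TPM. All 6 of the calcium channel genes listed at 0 were gamma subunits of the CACNG family, and the inward rectifier KCNJ10, the main potassium channel of astrocytes, had a highest value of 0.15 TPM. No tandem-pore (KCNK) gene, a class that carries background potassium current, reached 1 TPM, and the highest of the 15 was KCNK2, a mechanosensitive member. It was 0.18, 0.16 and 0.23 TPM in NC and 0.28, 0.25 and 0.36 TPM in KD, without overlap, and was too low to be tested. Of 40 voltage-gated potassium genes, 4 reached 1 TPM, and of 16 inward rectifier genes only KCNJ15 did. The calcium- or sodium-activated class was the best represented, with 4 of 8 genes at 1 TPM or more. Of the 103 genes under 1 TPM, the highest was KCNAB3 with a mean of 0.69 TPM, 16 were detected, and 8 reached 0.5 TPM in a library (KCNAB3, KCNE4, KCNE5, KCNIP2, KCNS1, KCNK9, KCND1 and KCNQ1). KCNJ10 was named here after its values were seen.

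**Figure D1:**
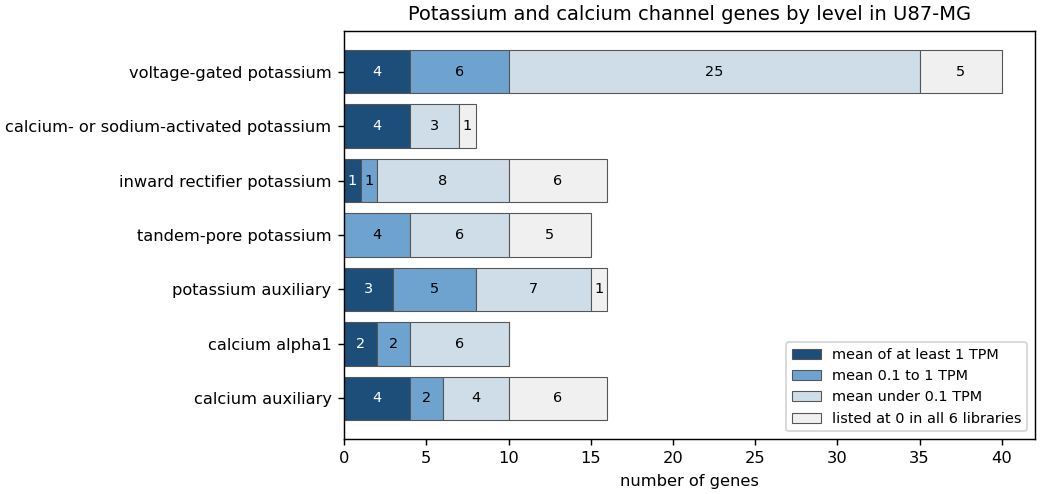
Number of channel genes (x axis) in each class (y axis), stacked by the mean TPM over the 6 libraries. The darkest segments are the 18 genes at 1 TPM or more; tandem-pore genes have none, and 24 of the 121 genes are listed at 0 in every library.

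The 18 genes at 1 TPM or more were tested, within a fit over all 13722 genes at this level, on log2(TPM + 1) with limma and Benjamini-Hochberg adjustment. An adjusted p under 0.05 was taken as a change. Owing to the pseudocount, fold changes of low genes understate the ratio of TPM. In KD, 5 channel genes fell and 2 rose, while 11 did not pass. KCNN3, KCNAB2, KCNJ15, CACNA2D3 and CACNA1A fell, and KCNMA1 and CACNA2D1 rose. The share that passed, 38.9%, lay near the 36.1% of all tested genes that passed. Over all tested genes 24.0% were lower and 12.1% were higher. The median log2 fold change was -0.15 over the channel genes and -0.06 over all genes tested. KCNN3 alone also moved by 1 or more on the log2 scale, a pair of limits that 1.87% of all tested genes met. The values of the groups did not overlap for 9 of the 18 genes (50%), and over all tested genes this share was 50.2%.

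**Figure D2:**
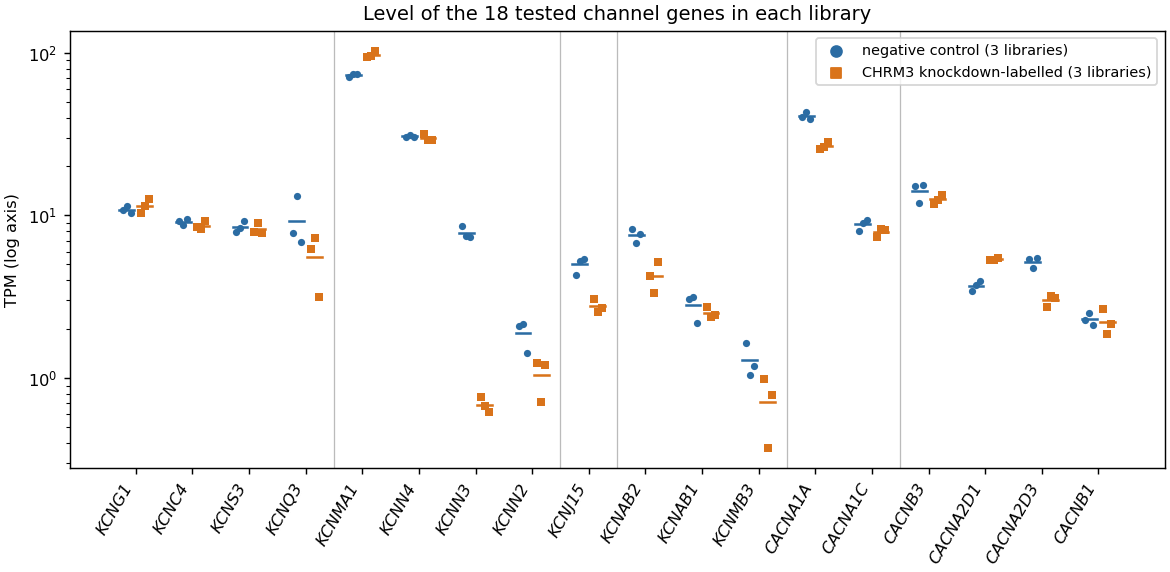
TPM on a log axis for the 18 tested channel genes, with circles for the 3 NC libraries, squares for the 3 KD libraries and lines for the group means; vertical lines part the classes. KCNN3 has the widest gap between groups, from 7.39 TPM or more in NC to 0.77 TPM or less.

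The promoters of 3 genes on which the results turn are shown, namely KCNN3, with the largest fold change, and KCNMA1 and CACNA1A, the most abundant potassium and calcium channel genes. Each is the 250 bases before a RefSeq transcript start in GRCh38.p14, on the minus strand and written in the direction of transcription. Capitals mark matches to the AP-1 motif TGANTCA or to the GC box GGGCGG, searched on both strands, so that a GC box of the other strand reads CCGCCC. RefSeq lists 3 starts for KCNN3, at chr1:154870282-154870531, chr1:154868071-154868320 and chr1:154859877-154860126, and 2 for KCNMA1, at chr10:77637809-77638058 and chr10:77350762-77351011. The CACNA1A window, chr19:13506480-13506729, lies before an inner start of the gene as GENCODE 29 draws it.
KCNN3 start A: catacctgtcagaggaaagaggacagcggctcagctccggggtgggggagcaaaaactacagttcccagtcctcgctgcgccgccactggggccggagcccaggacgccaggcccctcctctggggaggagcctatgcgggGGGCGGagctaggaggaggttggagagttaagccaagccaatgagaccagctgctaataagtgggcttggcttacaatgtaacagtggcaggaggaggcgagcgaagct
KCNN3 start B: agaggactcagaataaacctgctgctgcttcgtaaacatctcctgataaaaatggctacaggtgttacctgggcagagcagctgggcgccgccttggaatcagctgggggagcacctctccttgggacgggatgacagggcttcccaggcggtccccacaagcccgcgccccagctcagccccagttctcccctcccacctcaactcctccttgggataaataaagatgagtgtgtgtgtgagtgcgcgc
KCNN3 start C: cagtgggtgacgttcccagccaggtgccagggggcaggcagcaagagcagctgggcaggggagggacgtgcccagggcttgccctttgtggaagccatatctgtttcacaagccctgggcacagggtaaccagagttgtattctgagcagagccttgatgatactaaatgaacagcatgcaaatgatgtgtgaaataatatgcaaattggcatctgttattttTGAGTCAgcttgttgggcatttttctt
KCNMA1 start A: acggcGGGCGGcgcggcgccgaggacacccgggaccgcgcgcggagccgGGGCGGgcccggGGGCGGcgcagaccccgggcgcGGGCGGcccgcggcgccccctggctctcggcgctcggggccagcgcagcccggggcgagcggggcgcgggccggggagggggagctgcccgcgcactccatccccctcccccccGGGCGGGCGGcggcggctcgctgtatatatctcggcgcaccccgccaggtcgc
KCNMA1 start B: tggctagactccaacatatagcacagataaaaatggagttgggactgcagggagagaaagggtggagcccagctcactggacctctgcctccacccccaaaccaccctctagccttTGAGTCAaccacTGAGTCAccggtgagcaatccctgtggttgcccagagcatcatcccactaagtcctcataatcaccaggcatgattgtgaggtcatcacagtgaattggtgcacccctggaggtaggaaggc
CACNA1A: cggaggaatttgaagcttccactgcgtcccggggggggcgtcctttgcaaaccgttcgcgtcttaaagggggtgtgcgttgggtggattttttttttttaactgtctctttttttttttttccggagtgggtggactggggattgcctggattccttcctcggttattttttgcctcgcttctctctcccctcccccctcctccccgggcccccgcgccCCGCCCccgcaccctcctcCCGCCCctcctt
The starts of a gene differ in their bases. The outer KCNMA1 window was 85.6% G or C with 6 GC boxes, a pair of which overlap, whereas its inner window was 53.6% G or C with 2 AP-1 matches and no GC box. Of the KCNN3 windows, start A held 1 GC box and start C held 1 AP-1 match. Over the 7 channel genes that changed, 13 windows were found, of which 3 (one each of KCNN3, KCNMA1 and KCNJ15) held an AP-1 match and 6 a GC box. Of the 34943 RefSeq windows of this length, 6.59% held TGANTCA and 42.5% held GGGCGG. None of the 13 windows held TGACGTCA (the CRE motif) or TATAAA, which were in 1.63% and 10.8% of all windows. The TPM values are per gene and do not show which start was used. A match describes letters only and shows no binding.

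The calcium-activated potassium channels held both the most abundant channel gene and the largest change. KCNN3 (ENSG00000143603; chromosome 1, 154697455 to 154870280, GRCh38) encodes the small-conductance channel SK3, which opens through calmodulin bound to it when calcium rises. Its level was 8.64, 7.43 and 7.39 TPM in NC and 0.77, 0.67 and 0.62 TPM in KD. Every NC library lay far above every KD library. The mean fell from 7.82 ± 0.71 TPM to 0.687 ± 0.0764 TPM (SD, n = 3), an 11.4-fold difference in mean TPM. On the scale of TPM + 1 this was a log2 fold change of -2.38 ± 0.0981 (SE; limma adjusted p = 1.9e-05).

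KCNN2, the paralog that encodes SK2, was 2.09, 2.14 and 1.43 TPM in NC and 1.24, 0.71 and 1.20 TPM in KD. The groups did not overlap, but the log2 fold change of -0.49 ± 0.174 (SE) missed the threshold (limma adjusted p = 0.0679), and its 95% interval reached from -0.91 to -0.08. It passed without NC replicate 3 (limma adjusted p = 0.0447) and, with all 6 libraries, when protein-coding genes alone were tested (limma adjusted p = 0.0338). With a pseudocount of 0.1 the log2 fold change was -0.80 and did not pass. KCNN4 encodes the intermediate-conductance channel of the same family and was its most abundant member. It was 30.15, 31.41 and 30.36 TPM in NC and 31.51, 29.18 and 28.92 TPM in KD. These values overlapped, and the log2 fold change was -0.04 with a 95% interval of -0.14 to 0.07 (limma adjusted p = 0.563). KCNN1 stayed at or under 0.06 TPM.

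The summed TPM of the 4 KCNN genes was 40.4 ± 1.01 TPM in NC and 31.6 ± 1.64 TPM in KD (SD, n = 3). KCNN3 made up 19.4 ± 1.58% of this sum in NC and 2.17 ± 0.141% in KD, and KCNN4 made up 75.9 ± 1.93% and 94.5 ± 0.726% (SD, n = 3). The KCNN transcripts of KD were almost entirely those of KCNN4, whose own level did not pass the test.

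KCNMA1 (ENSG00000156113; chromosome 10, 76869601 to 77638369) encodes the pore of the large-conductance BK channel, gated by both calcium and voltage. It was 70.59, 74.10 and 74.50 TPM in NC and 93.86, 95.64 and 102.41 TPM in KD. All KD libraries were above all NC libraries. The mean rose from 73.1 ± 2.15 TPM to 97.3 ± 4.51 TPM (SD, n = 3), a ratio of 1.33, and a log2 fold change of 0.41 ± 0.0414 (SE; limma adjusted p = 0.000629). KCNMA1 gave 45.9 ± 1.04% of the summed TPM of the 79 pore-forming potassium channel genes in NC and 57.3 ± 1.62% in KD (SD, n = 3).

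The beta subunits of BK channels, which change gating, were scarce. KCNMB3 was 1.64, 1.04 and 1.18 TPM in NC and 0.99, 0.37 and 0.79 TPM in KD. These did not overlap, but the log2 fold change of -0.42 ± 0.198 (SE) did not pass (limma adjusted p = 0.146). It was -0.27 without KD replicate 2 and -0.83 with a pseudocount of 0.1, and did not pass in either fit. KCNMB3 overlaps PIK3CA on the other strand, which had means of 7.08 and 5.70 TPM, and the strand used in counting is not given in the sources used here. KCNMB4 had a mean of 0.123 TPM over the 6 libraries. The sodium-activated channel genes KCNT1 and KCNT2 were at most 0.18 TPM.

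**Figure D3:**
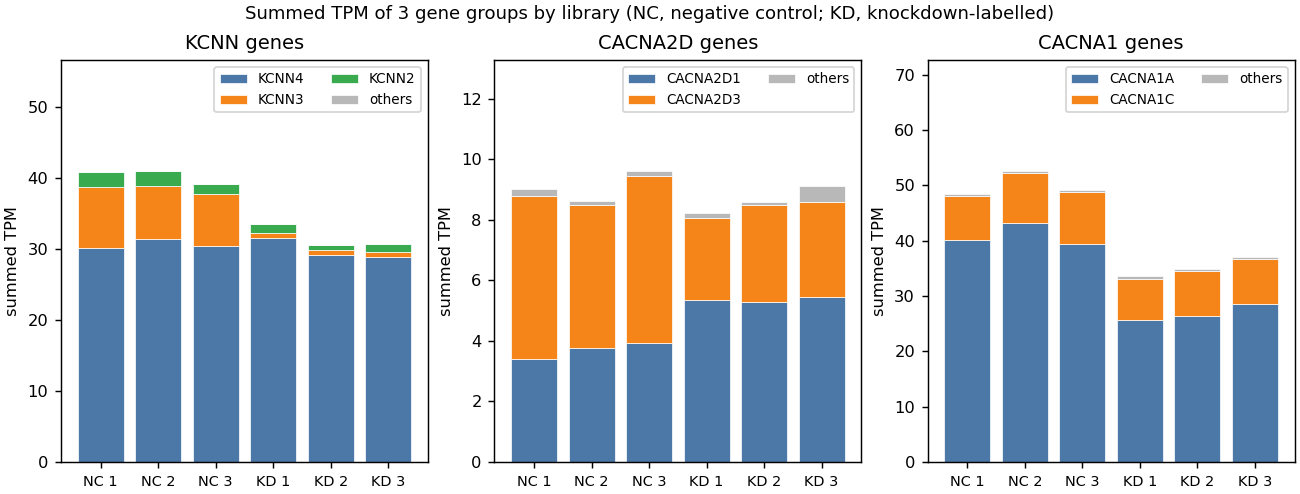
Summed TPM (y axis) of the KCNN, CACNA2D and CACNA1 genes in each library (x axis; NC, negative control, and KD, labelled as knockdown), stacked by gene. The KCNN3 segment shrinks from 19.4% to 2.17% of the KCNN sum, CACNA2D1 grows within a similar CACNA2D sum, and the CACNA1 sum falls with CACNA1A.

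Of the voltage-gated potassium genes, none of the 4 tested passed the threshold. KCNG1 and KCNS3 encode electrically silent subunits that form channels only together with other voltage-gated subunits. KCNG1, the most abundant of the class, was 10.82, 11.39 and 10.37 TPM in NC and 10.40, 11.50 and 12.54 TPM in KD, which overlapped (log2 fold change 0.07, 95% interval -0.11 to 0.25, limma adjusted p = 0.509). KCNS3 was 8.50 ± 0.707 TPM and 8.23 ± 0.627 TPM (SD, n = 3). KCNC4, which encodes the fast-inactivating channel Kv3.4, was 9.17 ± 0.343 TPM and 8.66 ± 0.49 TPM (SD, n = 3), and its log2 fold change was -0.07 with a 95% interval of -0.22 to 0.07.

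KCNQ3, a subunit of the M current that muscarinic receptors inhibit in neurons, had the largest standard error of the tested channel genes. It was 7.84, 13.11 and 6.85 TPM in NC and 6.18, 7.31 and 3.17 TPM in KD. The groups overlapped, with a high value in NC replicate 2 and a low value in KD replicate 3. The log2 fold change of -0.66 ± 0.318 (SE), with a 95% interval of -1.42 to 0.11, did not pass (limma adjusted p = 0.156). It was -0.41 without NC replicate 2 and -0.36 without KD replicate 3. Below the limit for testing, KCNS1, another silent subunit, was 0.50, 0.62 and 0.44 TPM in NC and 0.72, 0.67 and 0.75 TPM in KD. KCNH1, which encodes the EAG1 channel, was 0.02, 0.02 and 0.04 TPM in NC and 0.24, 0.11 and 0.19 TPM in KD. In a limma fit with no limit on low values, which covered 30412 genes and 97 channel genes, KCNH1 was the only channel gene under 1 TPM to pass (adjusted p = 0.0461), and its NC levels are close to the rounding step of the table.

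Among inward rectifiers and the auxiliary subunits of potassium channels, 2 genes fell. KCNJ15 (chromosome 21, 38155549 to 38307357) encodes the inward rectifier Kir4.2. It was 4.33, 5.28 and 5.39 TPM in NC and 3.08, 2.55 and 2.68 TPM in KD, without overlap. The mean fell from 5.0 ± 0.583 TPM to 2.77 ± 0.276 TPM (SD, n = 3), and the log2 fold change was -0.67 ± 0.106 (SE; limma adjusted p = 0.0038). The other 15 genes of the class each had a mean under 1 TPM, and 6 of them were listed at 0. KCNJ12, one of these 6, has a near-identical copy in KCNJ18, and how reads were shared between such copies is not given in the sources used here.

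KCNAB2 (chromosome 1, 5991466 to 6101193) encodes a cytoplasmic beta subunit of voltage-gated potassium channels. It was 8.30, 6.81 and 7.74 TPM in NC and 4.26, 3.35 and 5.19 TPM in KD. The groups did not overlap, and the log2 fold change was -0.72 ± 0.141 (SE; limma adjusted p = 0.00894). NPHP4, which overlaps KCNAB2 on the other strand, had means of 2.25 and 2.29 TPM. The related KCNAB1 did not pass, with 2.81 ± 0.542 TPM and 2.53 ± 0.185 TPM (SD, n = 3; log2 fold change -0.10, 95% interval -0.42 to 0.21); an antisense gene that overlaps it, ENSG00000272990, had means of 2.06 and 1.92 TPM. KCNAB3, KCNE4, KCNE5 and KCNIP2 had means between 0.373 and 0.69 TPM over the 6 libraries, and their groups overlapped.

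For the pore-forming alpha-1 subunits of calcium channels, CACNA1A was the most abundant and fell. CACNA1A (ENSG00000141837; chromosome 19, 13206442 to 13633025) encodes the pore of the P/Q-type channel, best known from nerve terminals. It was 40.11, 43.28 and 39.44 TPM in NC and 25.68, 26.33 and 28.48 TPM in KD. Every NC library was above every KD library. The mean fell from 40.9 ± 2.05 TPM to 26.8 ± 1.47 TPM (SD, n = 3), and the log2 fold change was -0.59 ± 0.0545 (SE; limma adjusted p = 0.000427). CACNA1C, the pore of the L-type channel Cav1.2, was 8.04, 8.98 and 9.44 TPM in NC and 7.33, 8.24 and 8.19 TPM in KD, which overlapped (log2 fold change -0.14, 95% interval -0.32 to 0.05, limma adjusted p = 0.216). CACNA1C overlaps DCP1B on the other strand, with means of 10.4 and 9.87 TPM. The other 8 alpha-1 genes each had a mean under 1 TPM, with CACNA1G and CACNA1D at means of 0.152 and 0.123 TPM over the 6 libraries.

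The summed TPM of the 10 alpha-1 genes was 50.1 ± 2.25 TPM in NC and 35.1 ± 1.75 TPM in KD (SD, n = 3), without overlap. CACNA1A made up 81.8 ± 1.29% of this sum in NC and 76.4 ± 0.744% in KD, and CACNA1C 17.6 ± 1.4% and 22.5 ± 0.959% (SD, n = 3).

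The alpha-2-delta subunits, extracellular proteins that carry the pore to the membrane, moved in opposite directions. CACNA2D1 (chromosome 7, 81946444 to 82443798), whose product binds gabapentin, was 3.41, 3.76 and 3.94 TPM in NC and 5.34, 5.29 and 5.46 TPM in KD. It rose without overlap, by a log2 fold change of 0.44 ± 0.0737 (SE; limma adjusted p = 0.00487). CACNA2D3 (chromosome 3, 54122547 to 55074557) was 5.39, 4.73 and 5.50 TPM in NC and 2.72, 3.21 and 3.12 TPM in KD. It fell without overlap, with a log2 fold change of -0.63 ± 0.0909 (SE; limma adjusted p = 0.00264). The sum over the 4 CACNA2D genes overlapped between groups, at 9.09 ± 0.499 TPM and 8.64 ± 0.446 TPM (SD, n = 3). Within it CACNA2D1 went from 40.8 ± 2.86% to 62.2 ± 2.59%, and CACNA2D3 from 57.3 ± 2.51% to 34.9 ± 2.17% (SD, n = 3), so that the most abundant of these genes differed between the groups in every library.

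Of the cytoplasmic beta subunits, CACNB3 and CACNB1 were tested and did not pass the threshold. CACNB4 and CACNB2, with means of 0.27 and 0.0567 TPM over the 6 libraries, were too low to be tested. CACNB3, the most abundant auxiliary gene, was 15.19, 11.96 and 15.44 TPM in NC and 11.79, 12.52 and 13.31 TPM in KD. The groups overlapped through NC replicate 2, and the log2 fold change was -0.16 (95% interval -0.41 to 0.09, limma adjusted p = 0.275). Without that library it was -0.27 (limma adjusted p = 0.0364). CACNB1 was 2.30 ± 0.193 TPM and 2.22 ± 0.402 TPM (SD, n = 3), and its log2 fold change, -0.04, changed sign under other scalings.

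**Figure D4:**
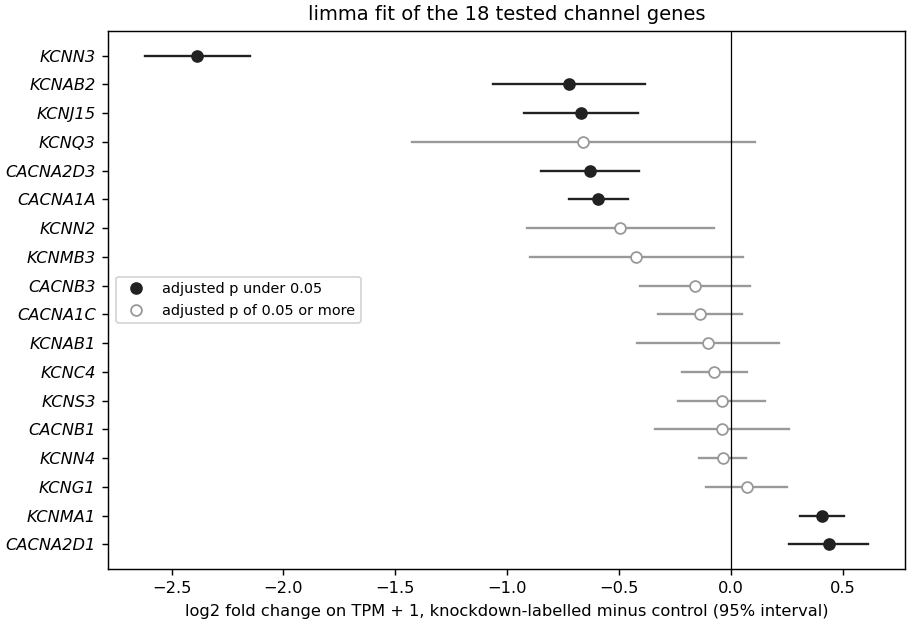
Log2 fold change on TPM + 1 (x axis, KD minus NC) of the 18 tested channel genes (y axis), with 95% intervals from limma; filled points have an adjusted p under 0.05. KCNN3 stands at -2.38, 4 further genes fell by between 0.59 and 0.72, and KCNMA1 and CACNA2D1 rose by 0.41 and 0.44.

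In sum over all members, the 95 potassium channel genes gave 173.5 ± 4.34 TPM in NC and 179.9 ± 3.49 TPM in KD, which overlapped, and the 26 calcium channel genes gave 75.9 ± 0.708 TPM and 59.0 ± 2.77 TPM (SD, n = 3), which did not overlap. The potassium sum holds the rise of KCNMA1 against the falls of KCNN3, KCNAB2 and KCNJ15. It also holds KCNQ3, which did not pass, with means of 9.27 TPM in NC and 5.55 TPM in KD. The calcium sum holds the fall of CACNA1A.

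Other genes of calcium and potassium handling were read from lists written from textbook roles. Of 132 genes, 65 were tested, of which 19 fell, 5 rose and 41 did not pass (36.9% passed, beside 36.1% of all tested genes). Their median log2 fold change was -0.07. The count of falls depended on the scaling, with 12 lower and 8 higher after median-of-ratios scaling and 11 lower and 8 higher after quantile normalization.

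In store-operated entry and the calcium pumps and exchangers, 6 of 18 tested genes fell, 1 rose and 11 did not pass (median -0.08). ORAI1, the pore of the store-operated channel, fell from 37.8 to 26.8 TPM (log2 fold change -0.48, limma adjusted p = 0.00033), and SLC8B1, the mitochondrial sodium-calcium exchanger, from 8.80 to 5.94 TPM (log2 fold change -0.50). The most abundant, SARAF, an inhibitor of store-operated entry, had a log2 fold change of -0.13 that passed with the TPM as deposited (limma adjusted p = 0.00571) but not after median-of-ratios scaling or quantile normalization. The only rise was that of ATP2B4, a calcium pump of the plasma membrane, from 51.9 to 66.5 TPM. ORAI2 and ATP2B1 also fell, by narrow calls (limma adjusted p = 0.0462 and 0.0338). Of the calmodulins, calcineurin and NFAT genes, 4 of 12 fell, 1 rose and 7 did not pass (median -0.07). CALM2, a gene of calmodulin, which serves as the calcium sensor of the KCNN channels, fell from 699.4 to 592.6 TPM (log2 fold change -0.24, limma adjusted p = 0.000195). NFATC2, a transcription factor activated by calcineurin, fell from 5.33 to 2.57 TPM (log2 fold change -0.80, limma adjusted p = 0.0104). PPP3CC also fell (limma adjusted p = 0.00839), as did RCAN1 by a narrow call (limma adjusted p = 0.0376).

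Among partners of the channels with other symbols, 1 of 7 tested genes fell, 2 rose and 4 did not pass (median 0.01). STAC, an adaptor of L-type calcium channels, rose from 34.2 ± 1.34 TPM to 60.3 ± 2.83 TPM (SD, n = 3; log2 fold change 0.80, limma adjusted p = 7.4e-05). GEM, a small GTPase that binds the calcium channel beta subunits and reduces calcium current, rose from 67.2 to 97.5 TPM (log2 fold change 0.53, limma adjusted p = 0.00018). RRAD, a GTPase related to GEM, was the one that fell, from 170.2 to 135.4 TPM (log2 fold change -0.33, limma adjusted p = 0.00164). VAPA, the most abundant, was 217.1 and 219.0 TPM and did not pass. For the sodium pump and the cation-chloride cotransporters, 4 of 10 fell and 6 did not pass (median -0.18). FXYD5, the most abundant gene of the list and a modulator of the pump, fell from 479.1 to 407.1 TPM (log2 fold change -0.23), and ATP1B3, a beta subunit of the pump, from 232.0 to 200.2 TPM. SLC12A4, a potassium-chloride cotransporter, had a log2 fold change of -0.34 whose call was narrow (limma adjusted p = 0.039) and was lost in 5 of the 6 leave-one-out fits. Of the other cation channels, 4 of 18 fell, 1 rose and 13 did not pass (median -0.06). MCOLN1, a lysosomal calcium release channel, fell from 32.1 to 20.2 TPM (log2 fold change -0.64, limma adjusted p = 0.0018), and TPCN1, of the endolysosomal channels with a tandem pore, from 29.3 to 23.4 TPM (log2 fold change -0.32). PKD2 also fell by a narrow call (limma adjusted p = 0.0460), and HCN2, a hyperpolarization-activated channel, was the one that rose, from 12.7 to 15.6 TPM. The most abundant, PIEZO1, a mechanically gated channel, changed by -0.10 in log2 (limma adjusted p = 0.0293) and did not pass after median-of-ratios scaling, where it was -0.03, nor in 4 of the 6 leave-one-out fits. Genes of these lists outside the rule for naming were named after their values were seen.

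**Figure D5:**
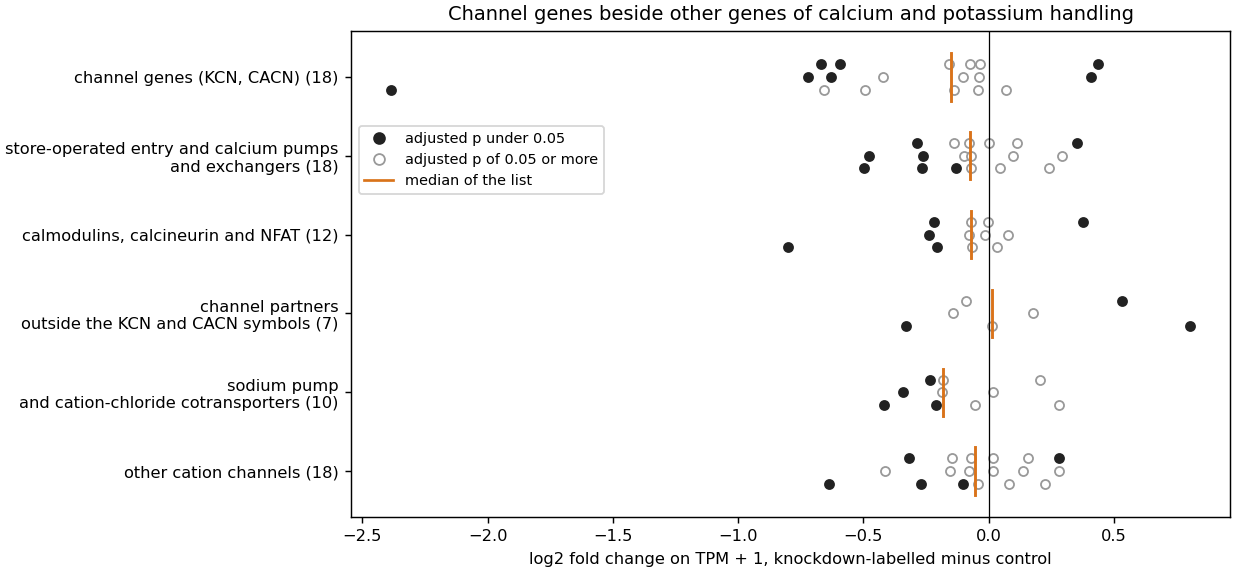
Log2 fold change on TPM + 1 (x axis, KD minus NC) of each tested gene, by list (y axis, number tested in brackets); filled points have an adjusted p under 0.05 and the orange bar is the list's median. The medians lie between -0.18 and 0.01, and KCNN3 at -2.38 lies beyond every gene of the other lists.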

How the data were processed

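The data are paired-end RNA-seq of 6 U87-MG libraries. The authors deposited 1 table of TPM per gene and library, given to 2 decimals; the submitters' processing notes name fastp, RSEM and GRCh38.p13, and versions, settings and annotation are not given in the sources used here. The paper names a TruSeq kit and TRIzol, the labels a SMARTer kit and an RNeasy kit. Depth is unknown, so no counting error is given and no count test was used. Columns were matched to samples by title.

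Symbols came from a table of Ensembl gene names, and gene types and GRCh38 coordinates from GENCODE 29, which held all 121 members. KCNRG, whose symbol has no digit, was counted among the partners. A gene that GENCODE 29 alone names KCNE1B, near-identical to KCNE1, had no symbol in that table, was listed at 0 in all libraries and was left out. The log2(TPM + 1) values of genes at a mean of 1 TPM or more were fitted by limma 3.58.1 (R 4.3.3; lmFit, then eBayes with trend), with group as the only term and p-values adjusted over all 13722 genes. CHRM3 was tested by exact permutation with scipy 1.17.1. The fit was tested on simulated data. Full values were given for members that passed and moved by 0.3 or more in log2, members of that size that missed the threshold and the most abundant member of each class. From each list of related genes, the most abundant gene and the 2 largest changes that passed were named, and some genes that this rule would name are not reported here. The members, lists and tests were chosen with earlier results of these data known. Alternatives varied pseudocount, low-value limit, scaling, variance model, replicate block, gene type and libraries. Promoter windows came from the RefSeq table for GRCh38.p14, in which all 7 changed members were found. Whether replicate numbers pair the libraries is not given in the sources used here. The correlations of same-numbered deviations from the group means were -0.0198, 0.0341 and 0.0334. These showed no clear pairing but cannot exclude a shared culture or batch.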

Additional observations from a re-analysis of the deposited data

How the results depend on the processing

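The 7 calls among the channel genes were all kept under each alternative that tested the gene. With a limit of 5 TPM, 10 channel genes were tested and 2 were lower, 1 higher and 0 past both limits, because CACNA2D1, CACNA2D3, KCNJ15 and KCNN3 were no longer tested. With a fold change limit of 0.5, 5 genes were past both limits. The number detected was 61 at 0.01 TPM, 20 at 0.5 TPM and 18 at 1 TPM.

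The median log2 fold change of the channel genes was 0.0048 when every gene was tested, -0.041 when 0.1 TPM was required, -0.052 when a pseudocount of 0.1 went with it, a choice made after seeing the data, -0.11 when 5 TPM was required, -0.084 after median-of-ratios scaling and -0.085 after quantile normalization. Leaving out single libraries gave -0.198 to -0.14. The limits change which genes are tested, and the scalings moved the median of all tested genes from -0.06 to 0.00.

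Some genes near 0 changed sign and did not pass. CACNB1 was 0.0095 and 0.017, KCNN4 0.032 and 0.041, and KCNS3 0.022 and 0.0063 after median-of-ratios scaling and quantile normalization. With single libraries left out, CACNB1 was -0.13 to 0.040, KCNS3 -0.097 to 0.016 and VAPA -0.0031 to 0.036, and VAPA was -1.7e-05 without mitochondrially encoded genes. Calls were gained by KCNN2 when protein-coding genes alone were tested (adjusted p = 0.0338).

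For the lists of related genes, alternatives were chosen after seeing the data, and the falls numbered 12 and 11 and the rises 8 and 8 after median-of-ratios scaling and quantile normalization. The replicate block gave 6 lower and 2 higher channel genes, the addition being KCNQ3 (limma adjusted p = 0.0299). Whether the replicate numbers pair the libraries is not known. Not every library correlated best with its own number, and correlations between libraries of other numbers ranged from -0.0656 to 0.0336. TPM keep no depth, so the precision of genes under 1 TPM is unknown.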

Other observations

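Loci whose symbols start with KCN or CACN but which are not members, most of them antisense or intronic RNA, numbered 38. Of these, 16 were listed at 0 in all libraries, 8 reached a mean of 0.1 TPM and 0 reached 1 TPM. KCNJ5-AS1, annotated as protein-coding in GENCODE 29, was the highest at 0.653 ± 0.0493 TPM in NC and 0.643 ± 0.0666 TPM in KD (SD, n = 3). KCNMA1-AS1, antisense to KCNMA1, was 0.21, 0.43 and 0.05 TPM in NC and 0.05, 0.29 and 0.84 TPM in KD, which overlapped. KCNMB2-AS1 was 0.03, 0.07 and 0.06 TPM and 0.14, 0.20 and 0.17 TPM. KCNRG, which encodes a regulator of voltage-gated potassium channels, was 0.29, 0.74 and 0.41 TPM in NC and 0.17, 0.11 and 0.11 TPM in KD. None of these was tested, and they were named after their values were seen.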
